A study of Mus musculus with 23 samples.

Results

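OT-II cells are CD4 T cells that carry a transgenic T cell receptor for a peptide of ovalbumin (OVA) presented on MHC class II. The comparison described here set 3 libraries of OT-II cells from mice given A8B1-OVA against 3 libraries of OT-II cells from mice given saline, 6 of the 23 libraries of the study, chosen by the cell type and treatment in their titles. OT-II cells and OT-I cells, the CD8 counterparts with a receptor for another OVA peptide, had been transferred into wild-type C57BL/6 mice. At 1 day after transfer each mouse was given A8B1-OVA (1 ug), free OVA in a molar-equivalent amount, free OVA at a higher dose, or saline. Spleen and lymph node cells were combined, the transferred cells were sorted at day 5 after transfer, and each library holds the RNA of 3 mice. Both groups therefore held transferred cells in mice that were not themselves transgenic, and the saline cells had met no injected OVA. The title of the series names erythrocytes as the target and anergy as the outcome studied, and the sources used here do not say what A8B1 is. Each library is a pool, and nothing says that libraries were separate beyond these pools, so p-values measure the spread between pools.

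A CD4 T cell that meets its peptide signals through the T cell receptor, which switches on calcium- and NFAT-driven genes, and, with co-stimulation, AP-1-driven genes, growth and division. With antigen but weak co-stimulation or inflammation, the cell can instead enter anergy, a state of poor response to renewed stimulation in which EGR2, EGR3 and diacylglycerol kinases are known to take part. Anergic CD4 cells are known for folate receptor 4 (Izumo1r) and CD73 (Nt5e) at their surface, exhausted cells for PD-1 (Pdcd1) and TOX, and resting naive cells for KLF2 and the IL-7 receptor.

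Library totals were 64.8 M, 57.5 M and 60.1 M counts in A8B1-OVA libraries 1, 2 and 3, against 51.5 M, 57.4 M and 45.1 M in saline libraries 1, 2 and 3, so 3 counts came to between 0.0463 and 0.0665 CPM (counts relative to the library total, as edgeR scales them). Summed over 7 CD4 lineage genes, levels ran from 1214 to 1316 CPM with A8B1-OVA and from 1310 to 1332 CPM with saline, and without Tox, which rose, over the other 6 from 1005 to 1081 CPM and from 1201 to 1220 CPM. Over 8 CD8 lineage genes they ran from 195 to 245 CPM with A8B1-OVA and from 160 to 177 CPM with saline, but Eomes supplied much of the A8B1-OVA sums: the other 7 genes summed to 94.9, 100.3 and 98.1 CPM with A8B1-OVA, against 171, 158 and 171 CPM with saline. Of the 9 general T cell genes tested, none was called, and Cd4 averaged 591 CPM with A8B1-OVA and 600 CPM with saline (log2 fold change -0.02, edgeR adjusted p = 0.92). Saline library 1 stood apart from the other 5 in markers of other cells: the summed level of 27 myeloid markers was 268, 300 and 190 CPM in the A8B1-OVA libraries, against 1102, 341 and 384 CPM in the saline libraries. The 18 B cell markers summed to 423, 460 and 223 CPM against 966, 348 and 316 CPM, and the 14 erythroid markers to 446, 339 and 258 CPM against 1241, 274 and 770 CPM. In bulk RNA, fewer cells of a type and less RNA per cell cannot be told apart. Named genes that lost their call in this comparison without saline library 1 are marked, with the fold change without it. For some other genes the fold change without it is also given. Some results are also given without it and molar-equivalent OVA library 3, the libraries with raised markers in the fit of OT-II libraries.

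A small part of the OT-II transcriptome was called different between A8B1-OVA and saline cells, and more genes were called higher than lower. Of 14757 genes tested, 1074 (7.28%) were called at an adjusted p under 0.05 by edgeR's quasi-likelihood test, 649 (4.4%) of them higher and 425 (2.88%) lower with A8B1-OVA. Over 2-fold, 274 genes (1.86%) were higher and 95 (0.644%) lower, and the median log2 fold change of all tested genes was -0.01. The libraries of the groups did not overlap for 3518 genes (23.8%), and 3123 genes had an unadjusted p under 0.05. On simulated data with 200 changed genes this test called 46% of true 2-fold and 77% of true 4-fold changes, and 3.91% of its calls were false. Genes that were not called may therefore still differ. The count of calls was 668 without A8B1-OVA library 1, 626 without A8B1-OVA library 2, 694 without saline library 2 and 578 without saline library 3. For each gene called in this comparison in the following paragraphs, the call also held when any 1 of the 6 libraries was left out, unless the text says otherwise. Counts of list members can be read against the 4.4% of all tested genes called higher and the 2.88% called lower. Below, log2 fold changes are A8B1-OVA over saline and carry their SE, levels are CPM scaled by TMM, and the values of a group are given in the order of libraries 1, 2 and 3.

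**Figure D1:**
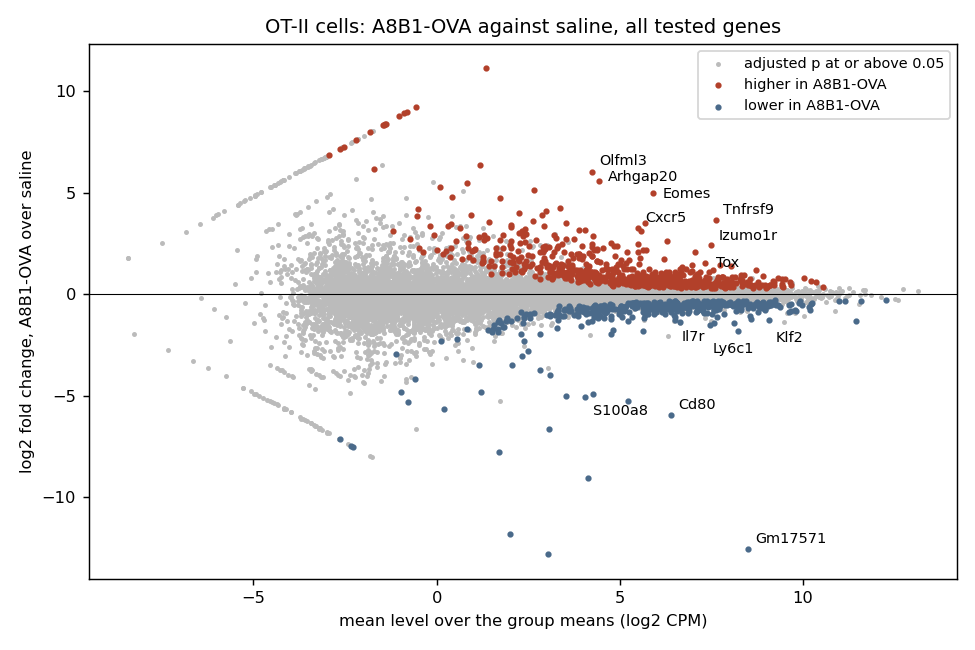
Log2 fold change of A8B1-OVA over saline (vertical axis) against mean level (horizontal axis, log2 CPM) for all tested genes in OT-II cells, with the 649 genes called higher in red, the 425 called lower in blue and the rest in grey. The named genes at the top (Olfml3, Arhgap20, Eomes and Tnfrsf9) stand clear of the grey cloud, while Klf2 and Il7r, named below it, are abundant genes with moderate changes.

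The genes with the largest rises, of those averaging 10 CPM or more and with no overlap between the groups, were a transcription factor, surface receptors and several genes with no well-known role in T cells. Eomes, a T-box transcription factor best known in cytotoxic and memory CD8 cells (chromosome 9, 118478212 to 118486132 in GRCm38), had 111, 146 and 93.6 CPM in A8B1-OVA cells, against 5.66, 2.56 and 2.75 CPM in saline cells. The lowest A8B1-OVA library was far above the highest saline library, and the group means of 117 ± 26.5 and 3.66 ± 1.74 CPM (SD, n = 3 each) gave a log2 fold change of 5.00 ± 0.42 (edgeR adjusted p = 5.7e-05). Olfml3, which encodes a secreted olfactomedin-like protein (chromosome 3, 103722222 to 103738001), had 34.3, 57.1 and 20.9 CPM with A8B1-OVA, against 1.12, 0.447 and 0.156 CPM with saline. It was at or below about 1 CPM in the saline cells, and its log2 fold change of 6.01 ± 0.69 (edgeR adjusted p = 0.00052) became 6.90 without saline library 1. Arhgap20, a GTPase-activating protein gene, had 53.2, 33.1 and 40.6 CPM against 1.85, 0.395 and 0.425 CPM, a log2 fold change of 5.57 ± 0.54 that became 6.69 without saline library 1.

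Tnfrsf9 encodes the co-stimulatory receptor 4-1BB, which appears on T cells after antigen contact (chromosome 4, 150914562 to 150946102). It had 350, 387 and 362 CPM in A8B1-OVA cells, against 34.1, 26.4 and 25.6 CPM in saline cells. This was a tight pattern, with means of 366 ± 19.3 and 28.7 ± 4.66 CPM (SD, n = 3 each), a log2 fold change of 3.67 ± 0.15 and an edgeR adjusted p of 1.5e-07. Lad1, known as an anchoring filament protein of epithelia, had 97, 98.8 and 88.6 CPM against 6.31, 9.61 and 9.39 CPM (log2 fold change 3.49 ± 0.17, edgeR adjusted p = 4.6e-07). Bcat1, the cytosolic branched-chain aminotransferase, had 19.7, 26.4 and 18.3 CPM against 2.21, 1.24 and 2.19 CPM. The SLAM-family receptor gene Slamf7 rose by 3.16 ± 0.37 on the log2 scale, the integrin gene Itga9 by 2.88 ± 0.44 and the B cell and helper T cell co-activator gene Pou2af1 by 3.13 ± 0.38. Crtam, a receptor gene of activated T and NK cells, rose by 3.16 ± 0.51, which became 4.0 without saline library 1. The ligand gene Wnt10a had 14.6, 36.8 and 7.78 CPM against 1.08, 0.843 and 1.16 CPM, and its log2 fold change of 4.26 became 3.44 without A8B1-OVA library 2.

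**Figure D2:**
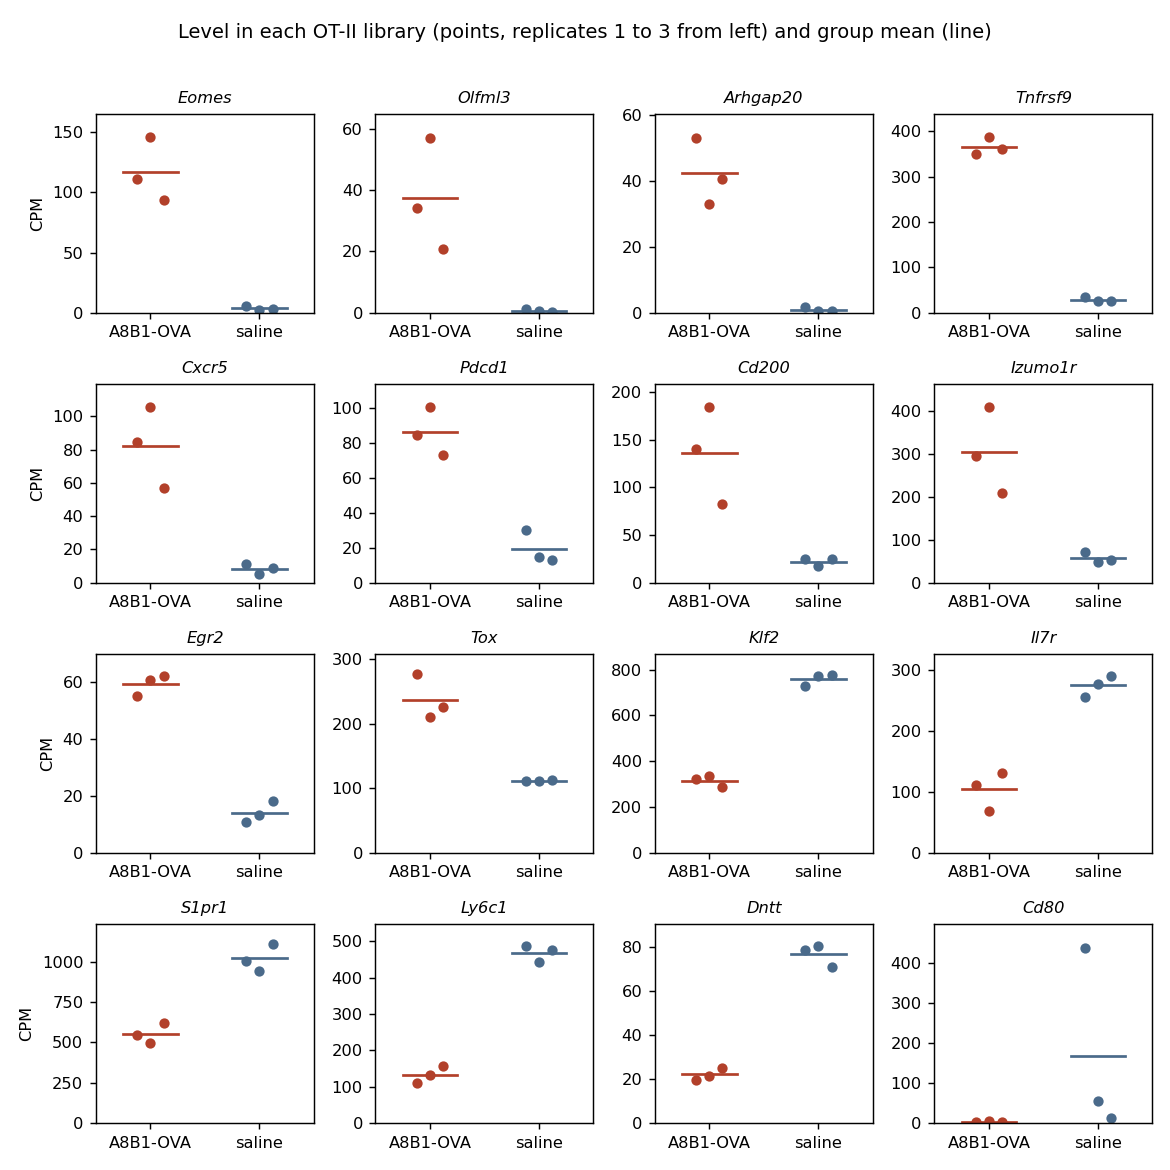
Level (CPM, linear axes from 0) of 16 genes in each OT-II library, with A8B1-OVA on the left and saline on the right of each panel; points are libraries 1 to 3 and lines are group means. In every panel the groups do not overlap. This was a condition for naming the 12 highest and 12 lowest genes, and it held for 23.8% of all tested genes. The genes from Eomes to Tox are higher with A8B1-OVA, and Klf2, Il7r, S1pr1, Ly6c1 and Dntt are lower. The saline mean of Cd80 is set by saline library 1 at 437 CPM.

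Several genes of naive and resting T cells fell. Of 32 naive and resting genes, 11 fell and none rose, with a median log2 fold change of -0.36, against 2.88% of all tested genes called lower. Klf2, a transcription factor that keeps T cells quiescent and circulating (chromosome 8, 72319033 to 72321656), had 321, 336 and 287 CPM with A8B1-OVA, against 728, 771 and 778 CPM with saline. The spread within each group was small, and the log2 fold change was -1.27 ± 0.10 (edgeR adjusted p = 3.1e-05). Il7r, the receptor chain for the survival cytokine IL-7 (chromosome 15, 9505788 to 9530176), had 112, 68.3 and 132 CPM against 256, 278 and 290 CPM, a log2 fold change of -1.40 ± 0.18 (edgeR adjusted p = 0.001). Dntt, the terminal transferase of lymphocyte precursors, had 19.7, 21.5 and 25 CPM against 78.7, 80.7 and 70.9 CPM, a log2 fold change of -1.80 ± 0.12. Igfbp4, which encodes an insulin-like growth factor binding protein, had 145, 149 and 163 CPM against 569, 336 and 311 CPM, with saline library 1 the highest. Its log2 fold change of -1.41 was -1.08 at its weakest when 1 library was left out. Ly6c1, a surface protein gene, had 109, 132 and 157 CPM against 487, 444 and 476 CPM, a log2 fold change of -1.82 ± 0.13. It was not called in a fit of all 23 libraries (edgeR adjusted p = 0.21). Of its 31-base words, 46.8% occur in another gene, so reads of close relatives may be mixed in. Rasgrp2, a Rap1 activator, had 69, 71.9 and 71.9 CPM against 131, 132 and 146 CPM. The change was not uniform over naive-cell genes: Tcf7, the gene of the stemness factor TCF-1, averaged 2719 CPM with A8B1-OVA and 2554 CPM with saline (log2 fold change 0.09, edgeR adjusted p = 0.53).

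Other genes among the 12 lowest included Myo6, a myosin gene, with 17, 8.34 and 7.86 CPM in A8B1-OVA cells, against 50.1, 42.5 and 36.9 CPM in saline cells. Pdlim4, a gene of a cytoskeletal adaptor, had 10.7, 13.7 and 13.5 CPM against 48.5, 38 and 43.8 CPM (log2 fold change -1.78 ± 0.14). Socs3, an inhibitor of cytokine signalling, had 103, 74.1 and 96.1 CPM against 397, 187 and 199 CPM (-1.52 ± 0.25), with saline library 1 the highest. Its log2 fold change was -1.07 at its weakest when 1 library was left out. As for all of the 12 lowest, separate groups were a condition of being named. Bambi, a decoy receptor gene of the TGF-beta family, was called at -1.58 but lost its call without A8B1-OVA library 2 (-1.33), A8B1-OVA library 3 (-1.45), saline library 1 (-1.45) or saline library 3 (-1.46).

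The largest falls belonged to genes whose level differed widely among the saline libraries. Gm17571, a predicted gene, had 0.123, 0.0877 and 0.145 CPM with A8B1-OVA, against 2075, 80.7 and 2.57 CPM with saline, and 52.4% of its 31-base words occur in another gene. Cd80, a co-stimulatory ligand gene of antigen-presenting cells, had 2.93, 3.52 and 1.72 CPM against 437, 54 and 11.1 CPM, and the olfactory receptor gene Olfr545 0.676, 0.631 and 0.772 CPM against 49.2, 7.24 and 10.3 CPM, with 17.1% of its 31-base words shared. In each case saline library 1 was the highest. Without it, the log2 fold change of Gm17571 was -8.42 in place of -12.53, that of Olfr545 -3.65 in place of -5.00, and that of Cd80 -3.57 (edgeR adjusted p = 0.041) in place of -5.94. Cd80 missed the threshold without A8B1-OVA library 1 (-6.00), 2 (-6.17) or 3 (-5.70). The neutrophil genes S100a8 and S100a9 had 1.84, 0.912 and 0.113 CPM and 2.58, 0.771 and 0.241 CPM with A8B1-OVA, against 87.9, 6.33 and 2.97 CPM and 101, 7.55 and 3.02 CPM with saline. Their log2 fold changes of -5.07 and -4.94 became -2.27 and -2.13 without saline library 1, with edgeR adjusted p of 0.076 and 0.085. Both also lost the call without A8B1-OVA library 2 (-5.04 and -4.71) or 3 (-4.55 and -4.46), and without A8B1-OVA library 1 they stood at -6.00 and -6.21. The myeloid list as a whole had 4 members called lower, S100a8, S100a9, Csf3r and Spi1, and none without saline library 1, A8B1-OVA library 2 or A8B1-OVA library 3. Csf3r and Spi1, genes of the granulocyte growth factor receptor and of a myeloid transcription factor, stood at -3.05 and -1.99, at -1.62 and -0.88 without saline library 1, and were also not called without A8B1-OVA library 1 (-3.20 and -1.93), 2 (-3.54 and -2.25) or 3 (-2.58 and -1.82); 24.3% of the 31-base words of Csf3r are shared. The part of myeloid RNA in these falls was not tested beyond leaving out that library.

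Of 30 genes that T cell receptor signals induce, 10 rose, 3 fell and 17 did not pass the test, against 4.4% and 2.88% of all tested genes called higher and lower. Their median log2 fold change was 0.52; 6 rose without saline library 3, and 1 fell without A8B1-OVA library 3 or without saline library 1. Egr2 and Egr3, transcription factors that NFAT induces and that restrain T cell responses, had 55.3, 60.7 and 62.1 CPM and 16.8, 29.9 and 29.3 CPM in A8B1-OVA cells, against 11, 13.3 and 18.1 CPM and 5.09, 7.91 and 7.35 CPM in saline cells. Neither overlapped between the groups, and the log2 fold changes were 2.07 ± 0.27 for Egr2 and 1.90 ± 0.26 for Egr3 (edgeR adjusted p = 0.00099 and 0.0012). Irf8, an interferon regulatory factor gene, had 97.8, 144 and 98.2 CPM against 47.1, 28.7 and 28 CPM (1.71 ± 0.24), and the NF-kappaB subunit gene Relb rose by 0.69 ± 0.13. Other early activation genes did not pass the test. The orphan receptor gene Nr4a1 had 505, 457 and 531 CPM against 285, 249 and 328 CPM, groups that did not overlap (0.79 ± 0.33, edgeR adjusted p = 0.18), and it was called when the 6 libraries compared were fitted alone (0.80, edgeR adjusted p = 0.0078). Nr4a3 averaged 25.1 and 18.6 CPM, and Cd69, an early activation marker, 246 and 249 CPM. Il2ra, the high-affinity IL-2 receptor chain, had 29.1, 23.1 and 37.8 CPM against 19.5, 17.1 and 19.7 CPM (0.68 ± 0.20, edgeR adjusted p = 0.062), and it passed without A8B1-OVA library 2 (0.84). Cd40lg, the ligand through which helper T cells license B cells and dendritic cells, fell, with 118, 89.7 and 130 CPM against 174, 208 and 213 CPM (-0.82 ± 0.16, edgeR adjusted p = 0.0095). Its call was lost in a fit of all 23 libraries (edgeR adjusted p = 0.23).

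AP-1 factors, the dimers that join NFAT at activation genes, mostly had fold changes below 0, but few were called. Of 15 members, 2 rose and 2 fell, with a median log2 fold change of -0.86, and only 3 had a fold change above 0. Junb had 2436, 1223 and 1141 CPM with A8B1-OVA, against 4966, 3457 and 3632 CPM with saline (-1.33 ± 0.33, edgeR adjusted p = 0.028), and every A8B1-OVA library was lower than every saline library. This call was lost without A8B1-OVA library 2 (-1.17), A8B1-OVA library 3 (-1.14), saline library 1 (-1.14), saline library 2 (-1.43) or saline library 3 (-1.40). Fosl2, the other member that fell, averaged 12.5 CPM against 19.4 CPM (-0.64 ± 0.16) and was not called without A8B1-OVA library 1 (-0.67) or 2 (-0.53) or saline library 1 (-0.66), 2 (-0.58) or 3 (-0.67). None of the list was called lower without A8B1-OVA library 2, saline library 1 or saline library 3, and 1 was without A8B1-OVA library 3 or saline library 2. Jdp2, a repressive dimerization partner of Jun proteins, had 9.69, 18 and 6.38 CPM against 1.62, 0.757 and 0.469 CPM (3.58 ± 0.49), and stood at 4.20 without saline library 1. Batf, which pairs with Jun proteins and IRF4, averaged 90.2 CPM against 60.5 CPM (0.58 ± 0.13). Its call was lost without A8B1-OVA library 1 (0.53), A8B1-OVA library 2 (0.47), saline library 2 (0.52) or saline library 3 (0.56), which left 1 AP-1 member called higher. Several AP-1 genes also answer to cell handling, and 22 heat shock and handling genes summed to 18999, 10989 and 13332 CPM in the A8B1-OVA libraries, against 19595, 22605 and 17186 CPM in the saline libraries. Junb belongs to both lists, so these sums are not separate from the AP-1 values. The handling list had 3 members higher, among them the mitochondrial chaperone gene Hspd1 (0.56 ± 0.12, with 50.1% of its 31-base words shared), and 3 lower, among them Junb. Hspd1 was not called without the libraries with raised markers (edgeR adjusted p = 0.052). Leaving out any 1 library left 1 member of the handling list higher, and left 6 lower without A8B1-OVA library 1, 1 without saline library 3 and none without each of the other 4. The part of handling in the AP-1 values was not tested.

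Anergy-associated genes went both ways. Of 25 genes, 9 rose and 5 fell, against 4.4% and 2.88% of all tested genes, with a median log2 fold change of 0.06. Izumo1r, the gene of folate receptor 4, had 296, 411 and 210 CPM in A8B1-OVA cells, against 70.9, 48.5 and 52.2 CPM in saline cells. All 3 A8B1-OVA libraries were above all saline libraries, and the log2 fold change was 2.42 ± 0.22 (edgeR adjusted p = 0.00012). Nfatc1, which encodes an NFAT factor, had 662, 654 and 566 CPM against 358, 331 and 335 CPM (0.88 ± 0.09, edgeR adjusted p = 0.00017). Dgkz, a diacylglycerol kinase that dampens receptor signalling, had 821, 968 and 795 CPM against 522, 486 and 529 CPM (0.75 ± 0.09). Its relative Dgka moved the opposite way, with 1003, 851 and 1106 CPM against 1332, 1404 and 1479 CPM (-0.51 ± 0.12, edgeR adjusted p = 0.02). That call was lost without A8B1-OVA library 1 (-0.52), A8B1-OVA library 2 (-0.41), saline library 2 (-0.51) or saline library 3 (-0.47). Nt5e, the gene of CD73, was lower with A8B1-OVA at 8.34, 8.45 and 9.95 CPM, against 25.7, 13.7 and 15 CPM. Its log2 fold change of -1.03 missed the threshold without saline library 1 (-0.68), A8B1-OVA library 1 (-0.98) or A8B1-OVA library 2 (-0.99). The ubiquitin ligase genes Rnf128 and Cblb, both named in anergy, were not called: Rnf128 averaged 0.935 CPM against 2.19 CPM and Cblb 177 CPM against 133 CPM (edgeR adjusted p = 0.19 and 0.091). The 5 genes that fell became 2 without A8B1-OVA library 1 or 2, 3 without saline library 1 or 3 and 1 without the libraries with raised markers.

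Of 20 inhibitory receptor genes tested, 5 rose and 2 fell, against 4.4% and 2.88% of all tested genes, and the median log2 fold change was 0.26; DESeq2 called 9 higher. Pdcd1, the gene of PD-1, had 84.3, 101 and 73 CPM with A8B1-OVA, against 30, 14.5 and 12.9 CPM with saline, with saline library 1 the highest of its group and still below every A8B1-OVA library (2.17 ± 0.29, edgeR adjusted p = 0.0012). Cd200, whose product signals to an inhibitory receptor on myeloid cells, had 140, 184 and 82.7 CPM against 24.6, 17.3 and 24.8 CPM (2.61 ± 0.30). Cd160 had 16.7, 21.6 and 16.6 CPM against 6.11, 4.93 and 6.57 CPM, and Cd5, a receptor gene whose level follows the strength of receptor signals, 410, 429 and 377 CPM against 250, 243 and 249 CPM (0.71 ± 0.10). The fifth, the PD-1 ligand gene Pdcd1lg2, averaged 6.62 CPM against 1.86 CPM (1.84 ± 0.37) and lost its call without A8B1-OVA library 2 (1.56). Lag3 had 2.2, 3.91 and 2.12 CPM against 1.22, 0.894 and 1.27 CPM and did not pass the test with edgeR (1.28 ± 0.40, edgeR adjusted p = 0.079), but did with DESeq2. Ctla4 had 38.3, 35.7 and 22.1 CPM against 23.8, 16.3 and 22.7 CPM, so the groups overlapped (edgeR adjusted p = 0.12), but it was called without A8B1-OVA library 3, where the log2 fold change was 0.82. Tigit averaged 2.15 CPM against 3.2 CPM and was not called. The 2 members that fell, named after their values were seen, were Ceacam1 (1.92 CPM against 4.63 CPM, -1.27 ± 0.30) and Lair1 (6.88 CPM against 14.7 CPM, -1.09 ± 0.29). Neither was called without A8B1-OVA library 1 (-1.19 and -0.90), A8B1-OVA library 3 (-1.14 and -1.11) or saline library 1 (-1.09 and -0.80), and 1 of them was not called without saline library 2 (Ceacam1, -1.28) or 3 (Lair1, -1.21).

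Of 16 transcription factors that mark exhausted T cells, 8 rose, 1 fell and 7 did not pass the test, against 4.4% and 2.88% of all tested genes called higher and lower. Their median log2 fold change was 0.63, with Eomes the highest; 5 rose without A8B1-OVA library 1, saline library 2 or saline library 3. Tox, a regulator of T cell exhaustion, had 276, 210 and 225 CPM in A8B1-OVA cells, against 111, 110 and 112 CPM in saline cells. The saline values were almost identical, and the log2 fold change was 1.09 ± 0.11 (edgeR adjusted p = 0.00017). Tox2, its relative, averaged 5.85 CPM against 3.71 CPM with overlapping groups. The Ikaros-family genes Ikzf2, which encodes Helios, and Ikzf3, which encodes Aiolos, had 42.1, 28.5 and 31.6 CPM and 143, 137 and 139 CPM, against 7.26, 5.38 and 9.9 CPM and 65.1, 75.7 and 74.9 CPM. Irf4 averaged 26.7 CPM against 16 CPM (0.74 ± 0.20, edgeR adjusted p = 0.043), but it no longer passed without A8B1-OVA library 1 (0.67) or 2 (0.61) and without saline library 1 (0.70), 2 (0.75) or 3 (0.77). The member that fell, named after its values were seen, was Prdm1, the gene of the effector and exhaustion factor Blimp-1, at 4.63 CPM with A8B1-OVA and 14.8 CPM with saline (-1.67 ± 0.23, edgeR adjusted p = 0.0012).

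Of 20 genes of follicular helper T cells, the CD4 cells that enter B cell follicles, 9 rose, 1 fell and 10 did not pass the test, against 4.4% and 2.88% of all tested genes called higher and lower, with a median log2 fold change of 0.47. Cxcr5, the chemokine receptor that guides cells into follicles, had 84.6, 106 and 56.7 CPM with A8B1-OVA, against 11.1, 5.47 and 9.03 CPM with saline (3.27 ± 0.34, edgeR adjusted p = 0.00023). Bcl6, the transcription factor of this lineage and an antagonist of Blimp-1, had 38.2, 46.8 and 50.4 CPM against 20, 15.6 and 13.5 CPM (1.46 ± 0.19, edgeR adjusted p = 0.0011). Pdcd1, Cd200 and Pou2af1 belong to this list as well. Icos had 95.6, 92.6 and 94.7 CPM against 59.6, 50.2 and 57 CPM, and Slamf6 388, 342 and 300 CPM against 189, 189 and 193 CPM. The member that fell, named after its values were seen, was the interleukin-6 receptor gene Il6ra (110 CPM against 186 CPM). None of 18 B cell markers was called, with or without saline library 1. All 18 had fold changes below 0, with a median of -0.51, but saline library 1 had the highest sum. The B cell sums were 423, 460 and 223 CPM with A8B1-OVA, against 966, 348 and 316 CPM with saline. The part of B cell RNA in the follicular helper genes was not tested.

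Of 22 regulatory T cell genes, 3 rose, Tnfrsf9, Izumo1r and Ikzf2, and 2 fell, against 4.4% and 2.88% of all tested genes, with a median log2 fold change of 0.22. The 3 became 5 without A8B1-OVA library 2 and 7 with DESeq2. Foxp3, the factor that defines these cells, had 9.76, 9.24 and 11.7 CPM in A8B1-OVA cells, against 23.3, 12.8 and 17.8 CPM in saline cells. Every A8B1-OVA value was lower, but the test was not passed (-0.81 ± 0.31, edgeR adjusted p = 0.15), and 16.3% of its 31-base words are shared. The 2 that fell were Nrp1, a co-receptor gene, and Itgae, which encodes the integrin chain CD103. Nrp1 had 18.3, 15.4 and 18.7 CPM against 23.8, 22.9 and 32.8 CPM, and lost its call without A8B1-OVA library 1 (-0.63), 2 (-0.52) or 3 (-0.65) and without saline library 1 (-0.66) or 3 (-0.42). Itgae had 1.37, 1.46 and 0.852 CPM against 4.79, 4.09 and 4.43 CPM, and its log2 fold change of -1.86 kept its call without saline library 2, but not without A8B1-OVA library 1 (-1.94), 2 (-2.0) or 3 (-1.65) or saline library 1 (-1.79) or 3 (-1.86). None of the list was called lower without A8B1-OVA library 1, 2 or 3 or without saline library 1 or 3.

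Of 16 factors of the helper lineages, 4 rose, Eomes and Bcl6 among them, and 3 fell, with a median of -0.35. Stat5a, which relays cytokine signals, had 199, 224 and 209 CPM against 128, 104 and 117 CPM (0.86 ± 0.11), with 20.2% of its 31-base words shared. Gata3, the factor of the Th2 lineage, had 87, 76.3 and 75.8 CPM against 107, 112 and 110 CPM (-0.46 ± 0.09, edgeR adjusted p = 0.01), and Runx3, a partner of T-bet, 44.1, 40.2 and 43.1 CPM against 64.2, 69.4 and 74.9 CPM (-0.71 ± 0.10). Tbx21, the gene of T-bet, averaged 5.8 CPM against 9.02 CPM and was not called (edgeR adjusted p = 0.4).

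Of 22 cytokine genes, 15 passed the filter on low counts, and 2 of these rose and none fell, where DESeq2 called 3 higher and 2 lower. Tnfsf11, the gene of RANK ligand, had 23.8, 24.4 and 27 CPM with A8B1-OVA, against 13.2, 9.04 and 8.49 CPM with saline (1.29 ± 0.23, edgeR adjusted p = 0.0056), and Lta, a lymphotoxin gene, 49.9, 54.6 and 66.8 CPM against 35.3, 44.8 and 36.3 CPM, called at 0.56 but not without A8B1-OVA library 2 (0.59) or 3 (0.43) or saline library 1 (0.50) or 3 (0.51), which left 1 cytokine gene called higher. Ifng had 2.06, 0.719 and 0.53 CPM against 2.17, 2.41 and 1.86 CPM, and Il2 1.2, 0.877 and 0.836 CPM against 0.315, 0.361 and 0.581 CPM. Neither was called (edgeR adjusted p = 0.31 and 0.18), and 16.6% and 15% of their 31-base words are shared with other genes. Among 20 chemokine and cytotoxic genes, 2 rose and 2 fell. Xcl1, the chemokine that attracts cross-presenting dendritic cells, had 14, 14.5 and 13 CPM against 1.1, 0.739 and 0.939 CPM (3.90 ± 0.44), and Crtam was the other. Prf1, the gene of perforin, fell, with 20.1, 21 and 21 CPM against 50.6, 43.5 and 43.1 CPM (-1.14 ± 0.14), and the protease gene Ctsw (21.3 CPM against 33.9 CPM) lost its call without A8B1-OVA library 1 (-0.59) or saline library 3 (-0.59).

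Markers of CD8 and NK cells bear on the cytotoxic genes. Of 8 CD8 lineage genes, Eomes rose and 5 fell, among them Cd8b1, a chain of CD8, with 24.9, 30.7 and 24.9 CPM against 53.5, 47.8 and 46.6 CPM (-0.88 ± 0.12). Cd8a, the gene of the other chain, was not called. By the plain library total it had 2.25, 1.86 and 1.21 CPM against 7.46, 1.6 and 1.44 CPM, so only saline library 1 lay above the A8B1-OVA libraries. The 5 CD8 lineage genes that fell became 2 without A8B1-OVA library 1 or saline library 3 and 3 without A8B1-OVA library 2 or 3 or saline library 1. Of 13 NK cell markers 4 fell, Klrk1, Klrd1, Prf1 and Cd7, and 2 without A8B1-OVA library 1, when Klrk1 stood at -1.39 in place of -1.51. Klrd1 (-1.34) was also not called without A8B1-OVA library 1 (-1.31), 2 (-1.48) or 3 (-1.25) or saline library 1 (-1.07) or 3 (-1.36). Without the libraries with raised markers, 1 NK marker was called lower and 1 higher, and Cd7 was not called (edgeR adjusted p = 0.056). Of the 13 markers, 2 had fold changes above 0. Klrb1c was 1 of them, with 4.5, 6.87 and 4.84 CPM against 5.53, 2.98 and 1.75 CPM by the plain library total. The NK list summed to between 55.2 and 63.7 CPM with A8B1-OVA and between 96.4 and 154 CPM with saline, and its defining gene Ncr1 was at 2.6 CPM or less in each library. Prf1 and Cd7 were the largest members of these sums in each library. By the plain library total, Prf1 had 20.2, 20.9 and 21.8 CPM against 49.8, 44.1 and 42.8 CPM. Cd7 had 17, 13.5 and 13.5 CPM against 33.7, 21.1 and 27.8 CPM. The sums are therefore no separate measure from Prf1. The part of CD8 or NK cells in the fall of Prf1 was not tested. Of 7 CD4 lineage genes Tox rose and Cd40lg, Trat1 and Gata3 fell, Trat1, an adaptor gene of the T cell receptor, to 96, 76.7 and 91.4 CPM against 129, 140 and 145 CPM. The carbonic anhydrase gene Car2 was the 1 erythroid marker of 14 that fell (12.9 CPM against 29.5 CPM), with 6 called without saline library 2, and the platelet integrin gene Itga2b the 1 platelet marker of 6 (0.365 CPM against 1.82 CPM). Car2 was highest in saline library 1, and its log2 fold change of -1.19 was -0.95 at its weakest when 1 library was left out.

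Of 18 co-stimulatory receptor genes 7 rose, and Cd40lg was the 1 that fell, against 4.4% and 2.88% of all tested genes called higher and lower, with a median log2 fold change of 0.31. Beyond Tnfrsf9, Icos and Slamf6 these included Tnfrsf1b, the gene of TNF receptor 2 (183, 159 and 166 CPM against 124, 101 and 106 CPM), and Cd6, an adhesion receptor gene (777, 719 and 657 CPM against 529, 430 and 478 CPM). Of 30 homing receptor and integrin genes 3 rose and 6 fell, with a median of -0.33. S1pr1, the receptor that lets T cells leave lymph nodes and a target of KLF2, had 547, 494 and 620 CPM in A8B1-OVA cells, against 1008, 945 and 1111 CPM in saline cells (-0.88 ± 0.11, edgeR adjusted p = 0.00061). The lymph node homing receptor gene Ccr7 had 838, 792 and 802 CPM against 1298, 1024 and 1249 CPM. Itgb7, a gut-homing integrin chain, had 863, 852 and 879 CPM against 1558, 1376 and 1536 CPM, and Selplg, the P-selectin ligand gene, averaged 659 CPM against 1154 CPM. Itgal, the LFA-1 alpha chain, rose, with 897, 917 and 914 CPM against 554, 517 and 544 CPM (0.76 ± 0.09, edgeR adjusted p = 0.00054).

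**Figure D3:**
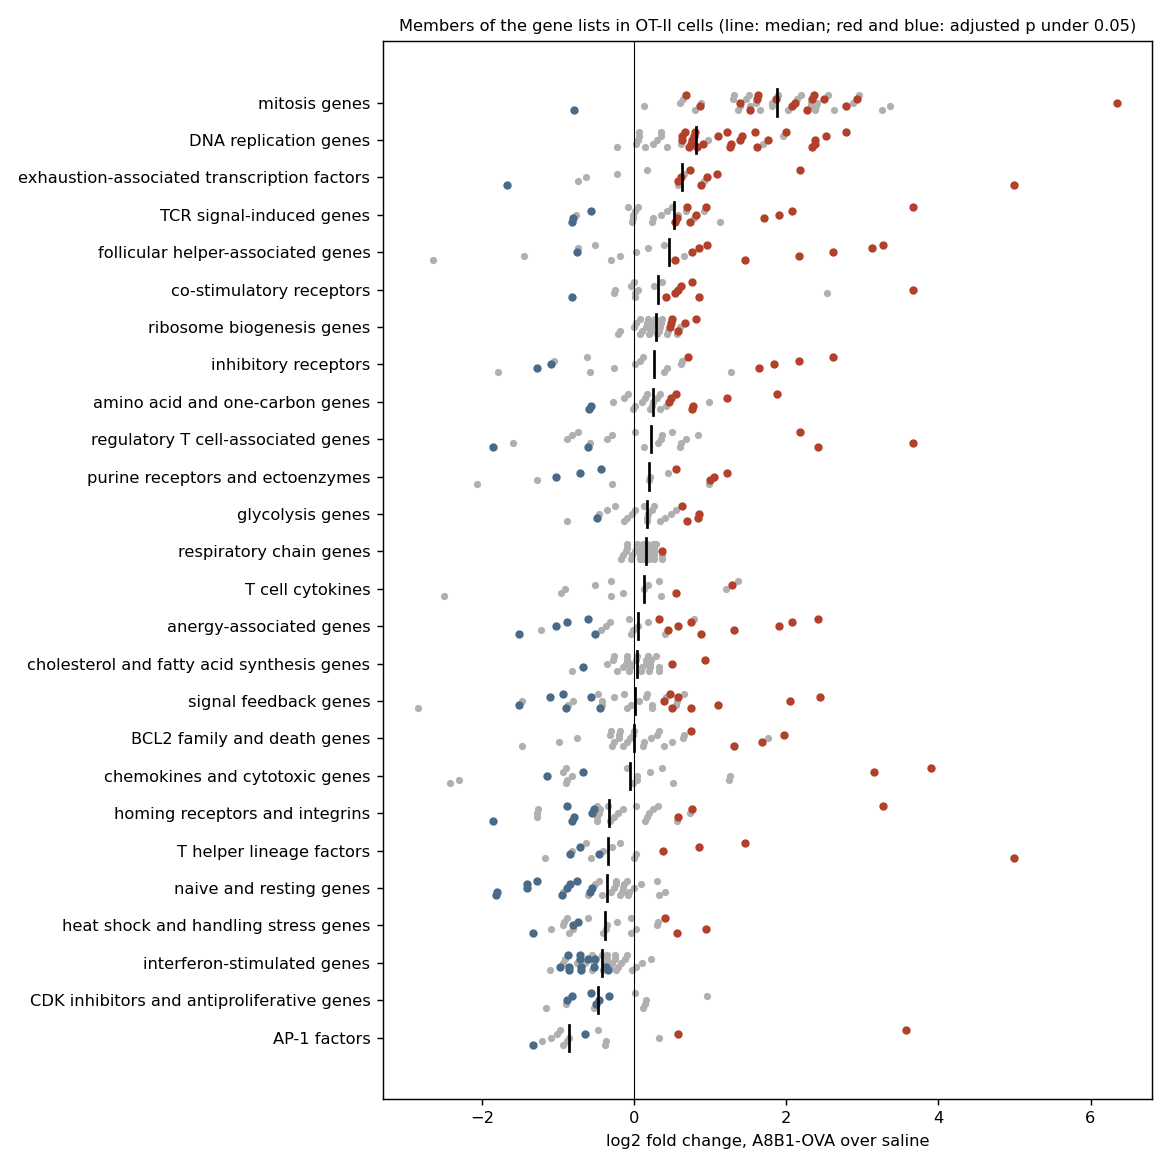
Log2 fold change of A8B1-OVA over saline for each tested member (points) of 26 gene lists in OT-II cells, ordered by the list median (black line), with members called higher in red, called lower in blue and not called in grey. Mitosis and DNA replication genes have the highest medians, 1.87 and 0.82, and AP-1 factors the lowest, -0.86.

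Genes that feed back on receptor signals moved individually: of 34, 8 rose and 6 fell, with a median of 0.01. Spry1, an inhibitor of Ras signalling, had 37, 34.3 and 24.6 CPM with A8B1-OVA, against 7.1, 7.2 and 3.24 CPM with saline (2.45 ± 0.39), Rgs16, a regulator of G-protein signalling, 18.8, 22.5 and 12.9 CPM against 5.76, 2.68 and 4.6 CPM (2.06 ± 0.34), and the phosphatase gene Ptpn7 309, 326 and 288 CPM against 184, 181 and 187 CPM. Socs3 was among the 6 that fell. The 8 became 5 without saline library 3, and the 6 became 1 without A8B1-OVA library 2, 3 without A8B1-OVA library 3 or saline library 1, and 2 without saline library 3. In the purine list, 4 of 14 rose and 3 fell. Slc29a1, a nucleoside transporter, had 134, 172 and 112 CPM against 62, 55 and 61.3 CPM (1.23 ± 0.18), and P2rx7, an ATP-gated channel, 27.9, 33.8 and 20.4 CPM against 12.2, 13.8 and 13.8 CPM (1.05 ± 0.19). The 3 that fell, Nt5e among them, were all lost without A8B1-OVA library 1, A8B1-OVA library 2 or saline library 1, and 1 was called without saline library 2 or 3. In the BCL2 and death list 4 of 29 rose and none fell, against 4.4% and 2.88% of all tested genes, with a median of 0.00; DESeq2 called 6 higher and 5 lower. Among them were the survival gene Bcl2l1 (41.5, 60.1 and 47.5 CPM against 29.3, 27.2 and 31.9 CPM), and Bcl2a1b and Bcl2a1d, which share 88.8% and 89.1% of their 31-base words with other genes and so cannot be separated with certainty.

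Cell division genes were the lists with the highest medians. Of 40 DNA replication genes 25 rose and none fell (median log2 fold change 0.82, 39 of 40 above 0), and of 48 mitosis genes 16 rose and 1 fell (median 1.87, 47 of 48 above 0), against 4.4% of all tested genes called higher. The mitosis count rested on single libraries: it was 6 without A8B1-OVA library 1, 2 without A8B1-OVA library 2, 25 without A8B1-OVA library 3, 26 without saline library 1, 4 without saline library 2 and 3 without saline library 3. The DNA replication count was 15 without A8B1-OVA library 2, 16 without saline library 2 and 14 without saline library 3. Summed over the mitosis list, levels were 668, 917 and 343 CPM in A8B1-OVA cells, against 316, 224 and 206 CPM in saline cells. A8B1-OVA library 3 was thus much closer to the saline libraries than the other A8B1-OVA libraries were. The DNA replication list summed to 2451, 2676 and 2030 CPM, against 1512, 1367 and 1381 CPM, and its groups were further apart relative to their spread.

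Mcm3, Mcm5 and Mcm6 encode subunits of the replicative helicase. Mcm5 had 180, 217 and 151 CPM with A8B1-OVA, against 78.1, 59.9 and 67.4 CPM with saline (1.41 ± 0.17, edgeR adjusted p = 0.00058), Mcm3 165, 181 and 150 CPM against 87.8, 69.3 and 74.1 CPM (1.10 ± 0.11), and Mcm6 310, 288 and 257 CPM against 160, 147 and 173 CPM (0.83 ± 0.11). Timeless, a replication fork protein gene, rose by 0.79 ± 0.12, and Uhrf1, which maintains DNA methylation at the fork, had 44.6, 67.9 and 27.1 CPM against 9.23, 5.61 and 9.46 CPM, with 27.9% of its 31-base words shared. Mki67, the gene of the proliferation marker Ki-67, had 14.2, 21.6 and 4.69 CPM against 5.42, 0.619 and 1.61 CPM. Its groups overlapped, since A8B1-OVA library 3 lay below saline library 1, and the test was not passed (2.40 ± 0.76, edgeR adjusted p = 0.08). It was passed without saline library 1 (3.62) and without A8B1-OVA library 3 (2.81). The kinetochore motor gene Cenpe had 11.8, 11.5 and 5.56 CPM against 2.27, 2.08 and 1.21 CPM (2.37 ± 0.39), and the spindle gene Tacc3 29.7, 46.3 and 18.3 CPM against 13.6, 8.79 and 7.98 CPM. The condensin gene Ncapd2 had 47.4, 59.2 and 50.3 CPM against 30.4, 34.9 and 20.7 CPM (0.87 ± 0.19), a call lost without A8B1-OVA library 2 (0.77). Kif23, a cytokinesis motor gene, was the 1 mitosis gene that fell, with 10.5, 13.2 and 9.65 CPM against 17.5, 21 and 19.3 CPM.

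**Figure D4:**
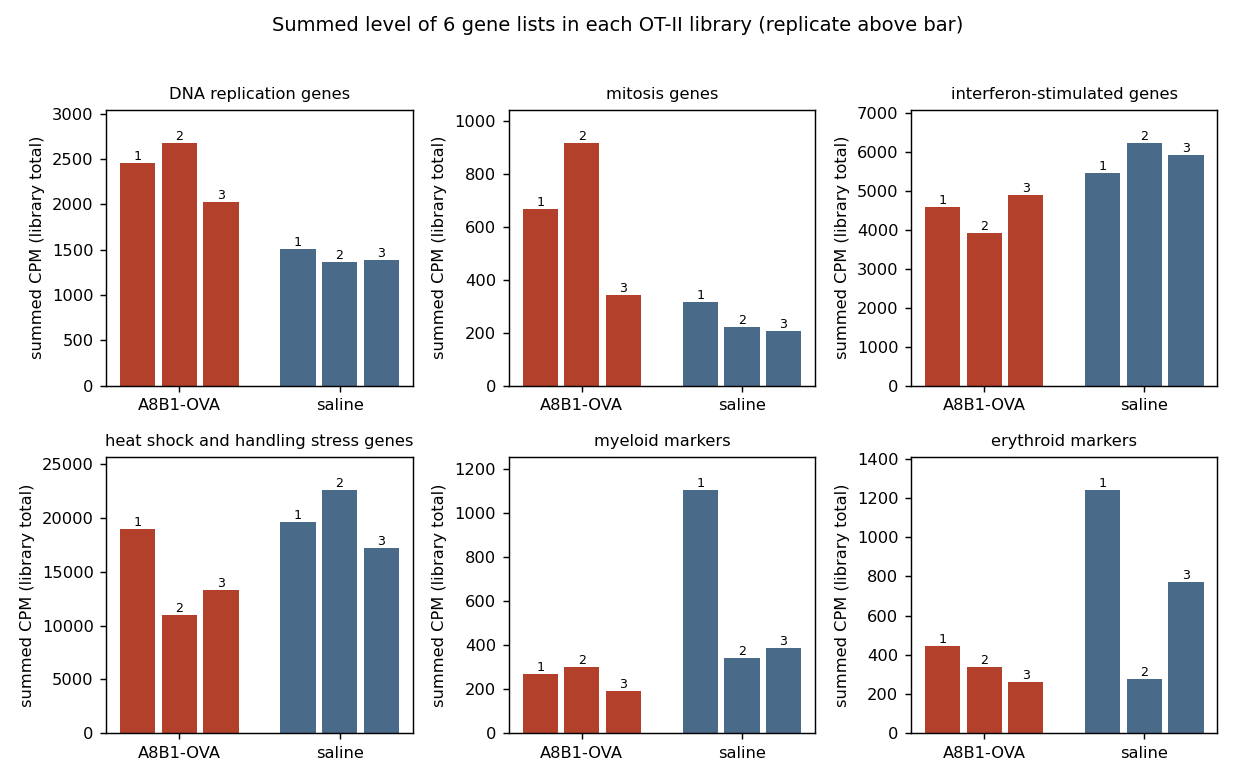
Summed level (CPM of the plain library total) of 6 gene lists in each OT-II library, A8B1-OVA on the left and saline on the right, with the replicate number above each bar. The DNA replication bars separate the groups (2030 CPM or more against 1512 CPM or less), the mitosis bar of A8B1-OVA library 3 (343 CPM) is near that of saline library 1 (316 CPM), and the myeloid and erythroid bars are highest in saline library 1.

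Promoters of these lists are shown because DNA replication genes are known targets of E2F factors, and mitosis genes of complexes that read the CHR element together with CCAAT boxes. In RefSeq promoters (GRCm38.p6, the 250 bases before the start), found for 11473 of 14727 tested symbols, the E2F-type letters TTCCCGC or TTGGCGC on either strand occurred in 12 of 38 promoters of the DNA replication list, which matched 32 of its 40 genes (31.6%), and in 8.94% of all 14469 promoters of tested genes, some genes having several. The CHR letters TTTGAA occurred in 15 of 42 promoters of the mitosis list (35.7%) against 11.9% of all. CCAAT occurred in 73.8% of the mitosis promoters and also in 57.9% of the DNA replication promoters, against 35.2% of all. Both strands were searched, and a reverse E2F-type match followed by T shares bases with a CCAAT match. The promoters of Mcm5 (chr8:75109259-75109508, plus strand) and Mcm6 (chr1:128359706-128359955, minus strand) each hold 2 E2F-type matches, in capitals, that of Ncapd2 (chr6:125191587-125191836, minus strand) holds 1 CHR and 3 CCAAT matches, and that of Cenpe (chr3:135212313-135212562, plus strand) 1 CCAAT match. All are printed 5′ to 3′ on the strand of the gene, so a match in reverse reads GCGCCAA for the E2F type and ATTGG for CCAAT.
Mcm5: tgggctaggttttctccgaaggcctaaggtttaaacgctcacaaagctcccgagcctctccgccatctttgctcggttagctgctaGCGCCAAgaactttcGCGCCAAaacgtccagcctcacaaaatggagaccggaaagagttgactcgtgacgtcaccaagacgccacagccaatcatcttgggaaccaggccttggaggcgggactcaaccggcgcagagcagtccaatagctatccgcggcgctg
Mcm6: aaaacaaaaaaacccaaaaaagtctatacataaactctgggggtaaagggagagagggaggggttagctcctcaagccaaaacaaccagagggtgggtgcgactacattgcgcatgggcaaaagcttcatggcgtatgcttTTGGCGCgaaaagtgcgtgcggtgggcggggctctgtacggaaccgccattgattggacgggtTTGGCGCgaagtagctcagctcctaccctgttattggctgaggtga
Ncapd2: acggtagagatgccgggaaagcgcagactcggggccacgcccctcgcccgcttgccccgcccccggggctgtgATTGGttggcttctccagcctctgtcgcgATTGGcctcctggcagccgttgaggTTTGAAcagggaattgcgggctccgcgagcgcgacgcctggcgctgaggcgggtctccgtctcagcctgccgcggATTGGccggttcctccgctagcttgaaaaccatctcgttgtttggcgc
Cenpe: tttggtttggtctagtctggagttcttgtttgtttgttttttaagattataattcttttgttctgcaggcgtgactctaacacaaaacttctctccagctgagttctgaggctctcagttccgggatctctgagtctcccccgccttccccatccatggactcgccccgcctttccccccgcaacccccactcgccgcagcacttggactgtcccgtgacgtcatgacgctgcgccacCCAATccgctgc
The Mcm3 promoter held no E2F-type match in this window although the gene rose with the others. Capitals mark only E2F-type matches in Mcm5 and Mcm6, and only CHR and CCAAT matches in Ncapd2 and Cenpe. The Ncapd2 promoter also ends in an unmarked E2F-type TTGGCGC, and those of Mcm5 and Mcm6 also hold unmarked CCAAT matches. These matches are letters in a sequence and no measure of binding. Among the genes called higher over 2-fold, 4.51% of 288 promoters held the AP-1 letters TGANTCA, where N is any base, against 4.83% of all, and 11.1% held the E2F-type letters.

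Of 14 CDK inhibitor and antiproliferative genes, 6 fell, none rose and 8 did not pass the test, against 2.88% of all tested genes called lower, with a median log2 fold change of -0.48. The 6 became 3 without A8B1-OVA library 2 or without saline library 1, 2 or 3, and 1 without the libraries with raised markers. Cdkn2d, which encodes the CDK inhibitor p19, had 108, 109 and 81.6 CPM in A8B1-OVA cells, against 211, 147 and 167 CPM in saline cells (-0.81 ± 0.15, edgeR adjusted p = 0.0081). Tob1, an antiproliferative gene linked to T cell quiescence and one of the anergy genes that fell, had 44.9, 27.1 and 32.8 CPM against 70.9, 60.2 and 62.1 CPM (-0.88 ± 0.18). It was not called without the libraries with raised markers (edgeR adjusted p = 0.054).

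Metabolic genes changed by list to different extents, against 4.4% of all tested genes called higher and 2.88% called lower. In the amino acid and one-carbon list 7 of 25 rose and 2 fell (median log2 fold change 0.25), with 1 lower without saline library 2 or 3. Shmt1, which feeds one-carbon units into thymidylate synthesis, had 44.9, 56.4 and 37.7 CPM with A8B1-OVA, against 12.5, 13.6 and 11.6 CPM with saline (1.88 ± 0.26, edgeR adjusted p = 0.0012), and the serine synthesis gene Psat1 66.2, 59.9 and 45.7 CPM against 29.2, 23.9 and 20.3 CPM. Umps, a pyrimidine synthesis gene, rose by 0.78 ± 0.12, whereas Atf4, the amino acid stress factor, fell to 119, 114 and 106 CPM against 165, 162 and 173 CPM. Of 30 ribosome biogenesis genes 6 rose and none fell (median 0.29), with 2 higher without saline library 3; Ncl, the gene of nucleolin, had 636, 753 and 753 CPM against 441, 431 and 474 CPM, and Nhp2 111, 138 and 93.4 CPM against 73.5, 59.5 and 61.7 CPM. Of 23 glycolysis genes 4 rose, and 1 did without saline library 2 and 2 without A8B1-OVA library 2 or saline library 3. The lactate transporter gene Slc16a1 had 63.2, 75.3 and 72.3 CPM against 39.5, 33.3 and 45 CPM. Pdk1, which holds pyruvate out of the mitochondria, was the member that fell, with 311, 281 and 343 CPM against 430, 437 and 438 CPM, and 2 members were called lower without saline library 2. Of 38 respiratory chain genes Atp5b alone was called, at 1706 CPM against 1318 CPM (0.37 ± 0.08), and it was not called without A8B1-OVA library 1 (0.37), A8B1-OVA library 2 (0.32) or saline library 2 (0.31), while 2 genes were called without A8B1-OVA library 3. Of 29 lipid synthesis genes 2 rose and 1 fell, close to the shares over all tested genes. Scd2, a fatty acid desaturase gene, had 100, 138 and 80.7 CPM against 46, 57.3 and 64.1 CPM, and without any 1 library the count of higher genes was 1.

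Of 39 interferon-stimulated genes tested, 13 fell, none rose and 26 did not pass the test, with a median log2 fold change of -0.43, against 2.88% of all tested genes called lower. The GTPase gene Igtp had 279, 259 and 294 CPM with A8B1-OVA, against 462, 446 and 451 CPM with saline (-0.71 ± 0.10, edgeR adjusted p = 0.0019), with 15.9% of its 31-base words shared. Bst2, the gene of the virus-tethering protein tetherin, had 64.6, 76.8 and 70.8 CPM against 122, 118 and 109 CPM (-0.72 ± 0.13). Cmpk2, an interferon-induced nucleotide kinase gene, had 23.7, 18.9 and 22.1 CPM against 42.8, 44.7 and 39.6 CPM and was not called without A8B1-OVA library 2 (-0.89). The list summed to 4583, 3932 and 4912 CPM, against 5471, 6238 and 5922 CPM. The count was 5 without A8B1-OVA library 1, 3 without A8B1-OVA library 2, 8 without saline library 1, 5 without saline library 2 and 3 without saline library 3, and 7 without the libraries with raised markers. The summed myeloid markers, also higher in the saline cells, were 268, 300 and 190 CPM against 1102, 341 and 384 CPM. Saline library 1 had the highest myeloid sum and the lowest interferon sum of the saline libraries. The part of myeloid RNA in the fall of interferon-stimulated genes was not tested.

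The OT-II libraries of the free OVA groups put these levels in context, and were not tested here. They share the saline libraries with the A8B1-OVA comparison in any fold change, so levels are given. Eomes had 2.97, 3.07 and 7.84 CPM with molar-equivalent OVA and 12.9 and 13.2 CPM with the higher dose of OVA, all below the lowest A8B1-OVA library at 93.6 CPM. Tnfrsf9 had 24.5, 33.8 and 31.6 CPM with molar-equivalent OVA and 43 and 43.3 CPM with the higher dose. Cxcr5 had 8.58, 15 and 19.8 CPM with molar-equivalent OVA and 51.9 and 53.1 CPM with the higher dose, and the higher-dose values were close to the lowest A8B1-OVA library at 56.7 CPM. Izumo1r had 59.3, 70 and 63.6 CPM and 144 and 119 CPM in these groups, and Tox 117, 115 and 105 CPM and 141 and 143 CPM. Among the genes that fell with A8B1-OVA, Klf2 had 559, 658 and 560 CPM with molar-equivalent OVA and 635 and 551 CPM with the higher dose, and Il7r 242, 272 and 240 CPM and 221 and 227 CPM. Cd80 had 5.85, 3.01 and 5.84 CPM and 20 and 0.999 CPM, so that the level of 437 CPM in saline library 1 was not met in these libraries either.

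Few genes were called for a difference between the OT-II and OT-I responses to A8B1-OVA. In a fit of all 23 libraries, which tests the difference of the responses (OT-II minus OT-I, each A8B1-OVA over saline), 66 of 15235 genes (0.433%) were called, 19 (0.125%) with a higher and 47 (0.309%) with a lower response in OT-II cells; with upper-quartile factors the split was 39 and 42. DESeq2 called 253 genes, and 1408 genes had an unadjusted edgeR p under 0.05. On simulated data the edgeR test called 25% of true 2-fold and 63% of true 4-fold differences, so few calls do not mean few differences. The count of edgeR calls was 40 without OT-I A8B1-OVA library 1, 39 without 2 and 111 without 3, 40, 30 and 32 without OT-I saline libraries 1, 2 and 3, and 37 without OT-II A8B1-OVA library 3. Eomes in OT-II cells averaged 111 ± 25.6 CPM with A8B1-OVA and 3.54 ± 1.74 CPM with saline, and in OT-I cells 117 ± 2.79 CPM and 67.3 ± 7.23 CPM (SD, n = 3 each; CPM of the joint fit). The A8B1-OVA means of the cell types were close, the saline means were far apart, and the log2 difference of the responses was 4.18 ± 0.46 (edgeR adjusted p = 8.0e-05). Olfml3 averaged 35.7 and 0.558 CPM in OT-II cells with A8B1-OVA and saline and 1.99 and 5.25 CPM in OT-I cells, a log2 difference of 7.39 ± 0.80 that became 8.28 without OT-II saline library 1. Trpm1, a cation channel gene, had 15.5, 15.9 and 11.2 CPM in OT-II cells with A8B1-OVA and 0.599, 0.702 and 1.26 CPM with saline, and averaged 33.9 and 9.75 CPM in OT-I cells (2.27 ± 0.35). Cxxc5, a zinc finger gene, averaged 22.5 and 5.88 CPM in OT-II cells and 56.4 and 55.5 CPM in OT-I cells (1.91 ± 0.30, edgeR adjusted p = 0.0024).

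In the other direction, Zbtb32, a repressor gene of activated lymphocytes, averaged 2.33 CPM in OT-II cells with A8B1-OVA and 2.28 CPM with saline, and 66.3 and 1.07 CPM in OT-I cells. The log2 difference was -5.92 ± 0.92 (edgeR adjusted p = 0.0025), or -5.19 without OT-II saline library 1. Nrp1 averaged 16.7 and 25.5 CPM in OT-II cells and 49.9 and 3.17 CPM in OT-I cells, a log2 difference of -4.59 ± 0.46 (edgeR adjusted p = 4.2e-05). Itgb1, the integrin beta-1 chain, averaged 128 and 149 CPM in OT-II cells and 591 and 120 CPM in OT-I cells (-2.53 ± 0.38), and the protease gene Capn3 11.1 and 4.49 CPM and 31.9 and 1.95 CPM (-2.72 ± 0.43). Ctla4 averaged 30.5 and 20.2 CPM in OT-II cells and 67 and 8.53 CPM in OT-I cells (-2.37 ± 0.46, edgeR adjusted p = 0.019), a call lost without OT-I A8B1-OVA library 1 (-2.28), OT-I saline library 2 (-2.23) or 3 (-2.35), OT-II A8B1-OVA library 3 (-2.15) or OT-II saline library 1 (-2.28). Of the 16 genes named by rule, 6 others also lost their call when single libraries were left out. The call of Anxa2 held only without OT-I A8B1-OVA library 3 or OT-II saline library 2 and was lost without each of the other 10 of the 12 libraries. Bace1 kept its call without OT-I A8B1-OVA library 3, OT-II A8B1-OVA library 1 or OT-II saline library 2 and lost it without the other 9. Capg kept it without OT-I A8B1-OVA library 3, OT-I saline library 1, OT-II A8B1-OVA library 2 or OT-II saline library 2, Chst2 without OT-I A8B1-OVA library 3, OT-I saline library 1, OT-II A8B1-OVA library 2 or OT-II saline library 3, and Pmepa1 without OT-I A8B1-OVA library 1 or 3, OT-II A8B1-OVA library 3 or OT-II saline library 1, and each lost it without the other 8. Cd72 lost it without OT-I A8B1-OVA library 2, OT-I saline library 1 or 3, OT-II A8B1-OVA library 1 or OT-II saline library 3. The log2 differences without 1 library lay between -2.41 and -1.91 for Anxa2, 1.02 and 1.48 for Bace1, -2.29 and -1.71 for Capg, -3.20 and -2.50 for Chst2, 1.46 and 1.78 for Pmepa1 and 1.11 and 1.40 for Cd72. Trpm1 lost its call without all the libraries with raised markers (2.01, edgeR adjusted p = 0.053). The mitosis list summed to between 343 and 917 CPM in the OT-II A8B1-OVA libraries and between 1627 and 3986 CPM in the OT-I A8B1-OVA libraries, and this difference between the cell types was not tested as a list.

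**Figure D5:**
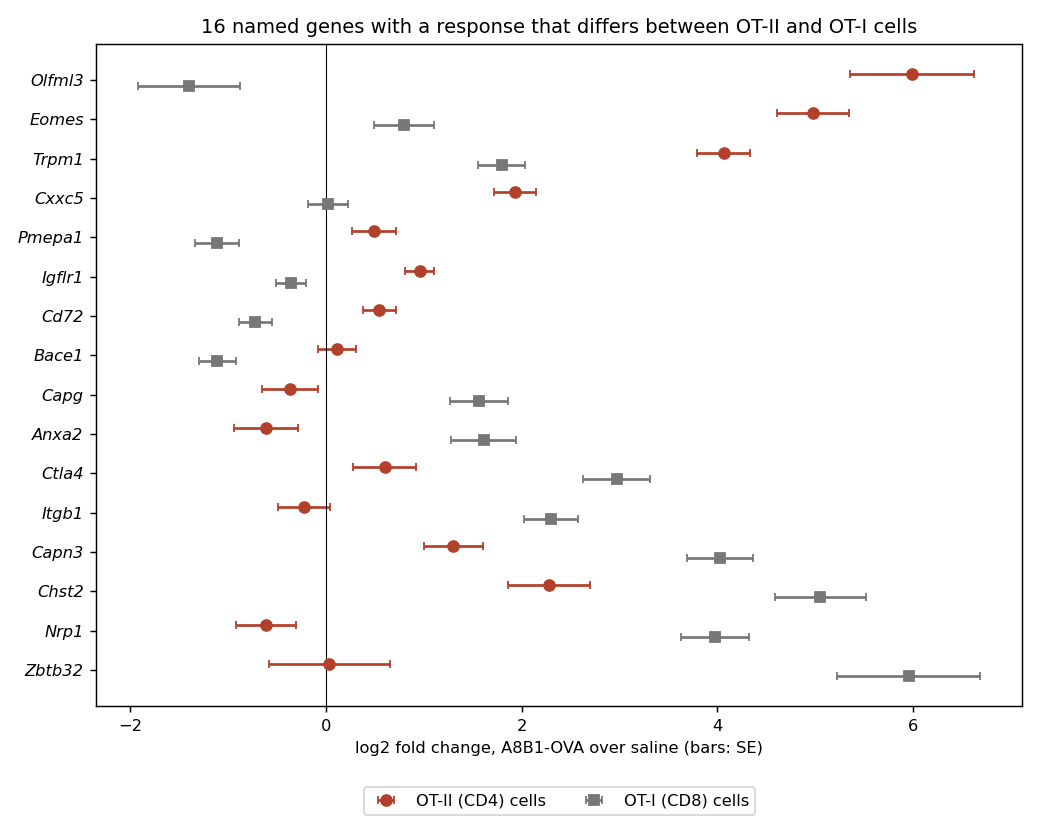
Log2 fold change of A8B1-OVA over saline, with its SE, in OT-II cells (red circles) and OT-I cells (grey squares) for 16 called genes averaging 10 CPM or more, the 8 highest and 8 lowest by difference of the responses. The upper 8, from Olfml3 to Bace1, lie further right in OT-II cells, and the lower 8, from Capg to Zbtb32, further right in OT-I cells, where Zbtb32 reached 5.95.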

How the data were processed

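Polyadenylated RNA of sorted OT-II and OT-I cells was turned into cDNA with the SmartSeq protocol, per the labels' protocols. Per the submitters' processing notes, bcl2fastq and kallisto 0.46.1 were used with genome build GRCm38. The deposited table holds the authors' estimated counts, all whole numbers, for 21900 genes and 23 libraries; the sources used here do not give the rounding, annotation or strandedness, so overlapping and antisense genes cannot be told apart. Identifiers were matched to GENCODE M21 (21883 of 21900) for positions. The constant genes of the T cell receptor were not analysed here, and a few named genes are not reported here.

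The test was the quasi-likelihood test of edgeR 4.0.16 (R 4.3.3) without a block, with TMM scaling and 1 coefficient for each group, on genes that passed filterByExpr (min.count 10, min.total.count 15). It was fitted on the 11 OT-II libraries, and on all 23 for the difference from OT-I cells. Calls were made at a Benjamini-Hochberg adjusted p under 0.05 over all tested genes. Levels are CPM computed with TMM factors, and sums of lists use the plain library total. A floor of 3 counts covers counting error only, since without molecular identifiers reads do not stand for independent molecules.

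Named genes were the 12 highest and 12 lowest called genes that averaged 10 CPM or more and whose groups did not overlap, from each list at most the 5 members lowest in adjusted p, a fixed panel, and the 8 highest and 8 lowest by the difference from OT-I cells. Genes that share at least 10% of their 31-base words with another gene are marked as such. The comparison, the gene lists and the rule were chosen with earlier results of these data known. The code was tested on simulated data. Alternatives were DESeq2 1.42.0, other scaling factors and filters, other sets of libraries, a replicate block and leaving out libraries.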

Additional observations from a re-analysis of the deposited data

Results flagged for a closer look

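The A8B1-OVA response differed between OT-II and OT-I cells for 66 genes, by edgeR's test of the difference itself. The log2 differences (OT-II minus OT-I) of the genes named by rule were positive for Olfml3 (7.39), Eomes (4.18), Trpm1 (2.27), Cxxc5 (1.91), Pmepa1 (1.60), Igflr1 (1.31), Cd72 (1.26) and Bace1 (1.22). They were negative for Zbtb32 (-5.92), Nrp1 (-4.59), Chst2 (-2.77), Capn3 (-2.72), Itgb1 (-2.53), Ctla4 (-2.37), Anxa2 (-2.22) and Capg (-1.93). The calls of Anxa2, Bace1, Capg, Chst2, Pmepa1, Cd72 and Ctla4 were lost without 10, 9, 8, 8, 8, 5 and 5 of the 12 libraries left out in turn, and none of the other 9 lost its call in this way. Their log2 differences without 1 library reached -1.91, 1.02, -1.71, -2.50, 1.46, 1.11 and -2.15 at the end nearest to 0. Igflr1, a receptor gene of the TNF receptor type, had 106, 109 and 90.5 CPM in OT-II cells with A8B1-OVA and 53.7, 52.5 and 51.3 CPM with saline, but 95.4% of its 31-base words occur in another gene. Bace1, a membrane protease gene, hardly differed in OT-II cells (6.72 CPM with A8B1-OVA and 6.21 CPM with saline) and averaged 18 CPM with A8B1-OVA and 38.7 CPM with saline in OT-I cells.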

How the results depend on the processing

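The count of called genes in OT-II cells was 1074, 1892 with DESeq2 and between 578 and 1011 without any 1 of the 6 libraries. For the difference from OT-I cells it was 66, 253 with DESeq2, 31 without the libraries with raised markers of other cells, and between 30 and 111 without any 1 library. The cause of these shifts was not tested; leaving out a library also leaves fewer samples. Of 1074 genes, 1057 were also called by DESeq2. The other scaling factors, filters and sets of libraries gave counts within 1.5 times of the main ones. The near-zero fold changes of 3 genes turned sign: Cd4 (-0.02) was 0.040 without the libraries with raised markers and between -0.056 and 0.041 without any 1 library, Cd69 (-0.02) between -0.11 and 0.13, and Zbtb32 (0.06) between -0.32 and 0.79. With the replicate number as a block, 872 genes were called in OT-II cells and 59 for the difference. Anxa2, Bace1, Capg and Chst2 then lost their calls for the difference. The labels do not say that equal numbers share mice. Deviations of same-numbered OT-II A8B1-OVA and saline libraries correlated at 0.00032, -0.14 and 0.062. Those of same-numbered OT-II and OT-I libraries correlated at 0.012, 0.16 and 0.25 with A8B1-OVA and at 0.28, 0.13 and 0.13 with saline. Differently numbered OT-II and OT-I pairs of these treatments ran from -0.24 to 0.091. Whether equal numbers share mice across cell types was not tested, and no fit paired the cell types within a treatment. DESeq2 moved the counts of several lists by over 1.5 times, to 30 mitosis genes (16 with edgeR) and 11 ribosome biogenesis genes (6) higher, and to 17 naive and resting genes (11), 20 interferon-stimulated genes (13), 8 myeloid markers (4), 5 AP-1 factors (2) and 5 chemokine and cytotoxic genes (2) lower. Without the libraries with raised markers, 5 signal feedback genes were called higher (8) and 3 lower (6), and no purine (3), inhibitory receptor (2), AP-1 (2) or myeloid (4) gene was called lower. DESeq2 called Lag3, Ctla4, Mki67, Il2ra and Cblb, which edgeR did not. With 3 pools per group, small differences of genes near the floor of 3 counts may have gone undetected at this depth, which was not tested.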
